A study of Komagataella phaffii with 13 samples.

Results

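The expression table of Pichia pastoris GS115 held 47 transcripts outside the gene annotation, among 5439 identifiers in all. They were taken as every identifier that carries the authors' prefix for newly found transcripts, and each is called here by the number that follows this prefix, from 1 to 47. Values are described for the 38 of them with a mean of at least 1 FPKM over the 13 libraries. FPKM stands for fragments relative to transcript length in kilobases and to a depth factor of each library. The other 9 had lower means, and 4 of these (transcripts 1, 35, 37 and 40) were listed at 0 in every library. The mean nearest to the limit was 1.89 FPKM inside it (transcript 23) and 0.957 FPKM outside it (transcript 36). The unannotated transcripts were set against the 5032 annotated genes that passed the same limit, or against all 5100 passing features.

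All 13 samples were taken as the Mut+ strain GS115 (His4), which carried the phytase gene phyA of Aspergillus niger behind the methanol-inducible AOX1 promoter and a yeast alpha mating factor secretion signal. The paper describes them as taken from 1 fermentation. They are the yeast cell culture after 10 h (B_10), the glycerol feed after 3 h (G_3), the glycerol-methanol feed after 2 h (GM_2) and the methanol induction every 12 h from 12 h (M_12) to 120 h (M_120). The label of B_10 names a bench-scale batch, so a fold change against B_10 may also compare fermentation scales, whereas one against G_3 does not use that sample. In the labels the number in the strain name climbs from one methanol sample to the next, and the extraction protocol is written for animal tissue. Each of the 3 earlier stages had 1 library and the 10 methanol libraries were serial samples, so their spread holds time and library differences, not the difference between fermentations. No p-value was computed between stages, and a transcript was called higher or lower by size alone, with a difference in log2(FPKM + 1) of at least 1 which each of the 10 methanol libraries had to show where methanol induction was compared. In RNA from a whole culture, fewer cells with a transcript and less RNA per cell cannot be told apart.

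The libraries held 23594583 to 42750724 fragments in genes, recovered from the FPKM values. All 182 low values of the unannotated transcripts that could be checked were whole numbers of fragments within 0.05. Of the 38 transcripts, 28 had at least 100 fragments in every library. The shallowest was transcript 23, with 9 to 31 fragments a library. M_120 had the largest sum of FPKM, 1136812, against 941715 to 1067415 in the other 12 libraries.

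Yeast genomes are compact, and most of their length is coding sequence with short spaces between genes. Transcripts outside an annotation can be protein-coding genes that the annotation missed, long noncoding RNAs, or untranslated ends of neighbouring genes. In P. pastoris, methanol as the carbon source switches on the genes of methanol oxidation and of peroxisomes through strong promoters such as that of AOX1, while glycerol represses many of them. The sources used here do not annotate a function or a reading frame for any of the 47 transcripts, so none is given a role.

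The unannotated transcripts lay in the spaces between annotated genes on all 4 chromosomes. Chromosomes 1 to 4 held 11, 13, 10 and 13 of the 47. The annotated genes of the reference table cover 78.9% of the chromosomes up to the last gene, and none of the 47 shared a base with one. The 47 were picked as transcripts outside the annotation, so this lack of overlap is not a finding about their place. The genome build of the deposited coordinates is not named in the sources used here, and distances to genes were measured on RefSeq assembly ASM2700v1 on the strength of this lack of overlap. The minus strand was listed for 36 of the 47 transcripts and the plus strand for 11, and among the 38 the split was 32 and 6. Only 5 of the 47 had a spliced part, and the strandedness is not given, so how the strand of the others was set is not known. The reference table holds no strand, so no share over annotated genes stands beside this split.

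The distance between the flanking genes had a median of 1353 bases for the 37 transcripts with a gene on both sides. Such a space cannot be shorter than the transcript in it, so it was not compared with the other spaces between genes. A transcript filled a median of 68.1% of its space, over 50% in 28 cases and over 80% in 12. The nearest annotated gene was a median of 97 bases away, and 20 of the 38 lay within 100 bases of one. For 12 transcripts (4, 5, 8, 9, 11, 12, 20, 22, 24, 25, 30 and 32) the gap was 3 bases or less, and for 3 of these (4, 8 and 24) it was 0. Whether such abutting transcripts are separate RNAs or extensions of the neighbouring gene was not tested.

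**Figure D1:**
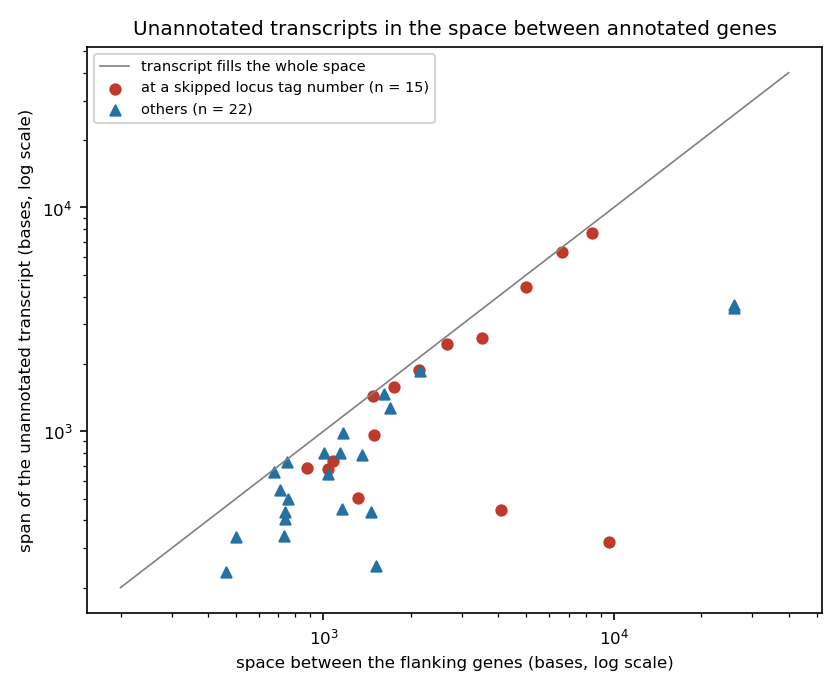
Length of the space between the flanking annotated genes (x axis, bases, log scale) against genomic span of the unannotated transcript (y axis, bases, log scale), with 1 point for each of the 37 transcripts that have a gene on both sides, red at a skipped locus tag number and blue elsewhere. Points near the diagonal fill their space, as transcripts 43 and 29 do (91.4% and 95.5%), and transcripts 39 and 46 lie far from it, in the 25921-base stretch on chromosome 4.

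The 38 unannotated transcripts were of mixed length, with many short ones. Their transcript length ran from 235 to 7647 bases with a median of 731.5, against a median coding length of 1199 bases over the 5032 annotated genes. The 2 lengths are unlike, since the gene models of the reference table hold few or no untranslated ends (92.2% of their lengths are multiples of 3). Of them, 11 were under 500 bases (28.9%, against 10.4% of the annotated genes), 14 were between 500 and 1000, 6 between 1000 and 2000, and 7 were 2000 bases or more (18.4%, against 20.1% of the annotated genes). Transcripts 25 and 43 had a genomic span longer than their transcript length, which means that they were recorded with a spliced part.

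The long transcripts often sat where the numbering of the annotation jumped. Adjacent genes had consecutive locus tag numbers, upward or downward, in 79.4% of 5036 pairs, while other pairs joined stretches numbered apart. A pair was counted as skipped where 1 to 5 numbers between its 2 tags were in no table used here, which held for 192 pairs (3.81%). Of the 38 unannotated transcripts, 15 (39.5%) lay in such a pair, and these held 7.81% of all skipped pairs. The 15 had a median length of 1382 bases, against 641 bases for the other 23. A space must be long enough to hold a transcript, and neither these shares nor these lengths were adjusted for the length of the space. They are a description of place only. Transcript 43 (chromosome 4, 186331 to 194037, minus strand) had 7647 bases and lay where PAS_chr4_0097 would be numbered. Transcript 29 (chromosome 3, 255528 to 261851, minus strand) had 6324 bases at the skipped number PAS_chr3_0128, and transcript 31 (chromosome 3, 476519 to 480919, minus strand) had 4401 bases at PAS_chr3_0237. What the skipped numbers stood for is not given in the sources used here.

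Chromosome 4 held transcript 39, the one of the 38 farthest from any gene of the reference table. Transcripts 39 (1709126 to 1712684, plus strand, 3559 bases) and 46 (1700652 to 1704313, minus strand, 3662 bases) shared a stretch of 25921 bases without a gene of that table, between PAS_chr4_0908 and PAS_FragD_0029. Another 352 identifiers of the expression data had no coordinates there, so whether any of them lies in this stretch is not known. Transcript 39 was 8650 bases from the nearest gene and transcript 46 was 176 bases from it. Their levels differed, with means of 102 and 19.2 FPKM, and their courses were loosely related (Pearson r = 0.31 over 13 libraries). Transcript 47 lay beyond the last gene of the reference table on chromosome 4, and transcripts 35, 36 and 40 before the first.

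Among the 47, 6 transcripts overlapped another unannotated transcript on the opposite strand. The pairs were 1 and 6 (chromosome 1, 216956 to 217423 and 216956 to 217454), 35 and 40 (chromosome 4, 54 to 995 and 48 to 1026) and 37 and 41 (chromosome 4, 33358 to 36149 and 33341 to 38658). All 4 transcripts listed at 0 belonged to these pairs. Since the strandedness of the counting is not given in the sources used here, reads from the 2 strands of such a pair cannot be told apart. None of these 6 passed the level limit.

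The unannotated transcripts were present at levels below those of typical genes, with some exceptions. The median of their mean FPKM was 31.8, against 56.6 for annotated genes, and 9 of the 38 lay above the annotated median. Their levels were 100 FPKM or more in 7 cases, 10 to 100 in 23 and 1 to 10 in 8. The 38 together made up 0.295% of all FPKM in B_10, 0.430% in G_3, 0.604% in GM_2 and 0.438 to 0.643% during methanol induction.

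**Figure D2:**
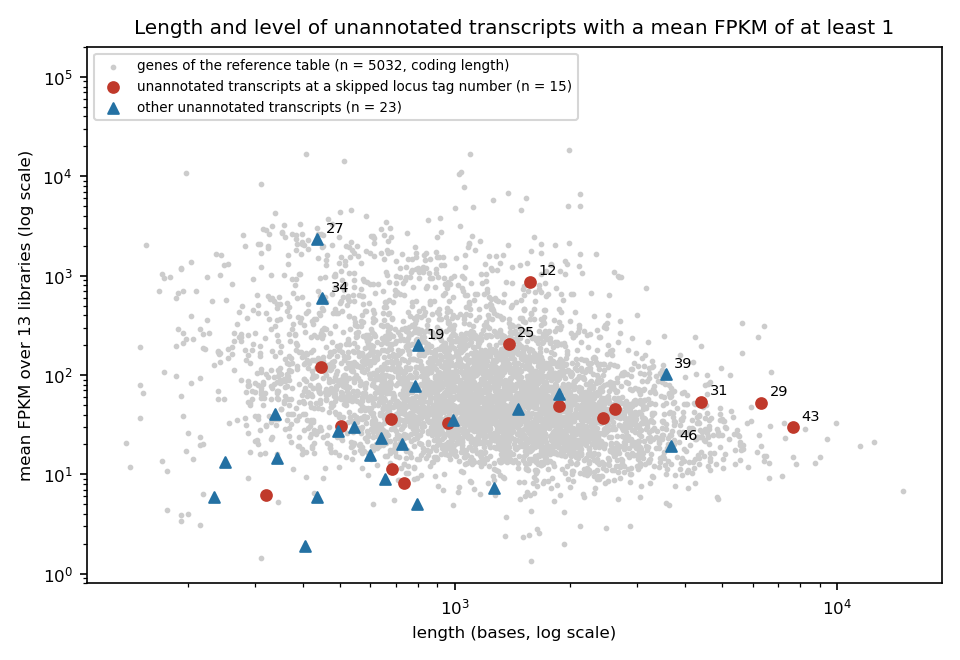
Length (x axis, bases, log scale; transcript length of the transcripts, coding length of the genes) against mean FPKM over 13 libraries (y axis, log scale) for the 38 unannotated transcripts, in colour by whether the locus tag number is skipped at their place, over the annotated genes in grey. Of the 38, 9 lie above the median of the genes, 56.6 FPKM, and transcripts 27, 12 and 34 stand out at the top with means of 2347, 873 and 599 FPKM.

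Transcript 27 was the most abundant of the 38 (chromosome 3, 1879891 to 1880326, plus strand, 436 bases), and with a mean of 2347 FPKM it ranked 60 among all features. It was high at every stage, with 1836 FPKM in B_10, 1984 in G_3, 3144 in GM_2 and 1643 to 2946 in the methanol libraries (median 2309). GM_2 exceeded all of the other 12 libraries, and the methanol libraries overlapped the glycerol stages. The nearest gene, PAS_chr3_0968, was 252 bases away with a mean of 158 FPKM, and the 2 courses were unrelated (r = −0.05).

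Transcripts 12 and 34 followed in abundance, at ranks 234 and 322. Transcript 12 (chromosome 2, 720190 to 721759, plus strand, 1570 bases) was 1 base from PAS_chr2-1_0389. It had 213 FPKM in B_10, 718 in G_3, 734 in GM_2 and 568 to 1601 in the methanol libraries (median 898), so B_10 was the lowest of all libraries. Transcript 34 (chromosome 3, 2148400 to 2148849, minus strand, 450 bases) had 290 FPKM in B_10, 465 in G_3, 790 in GM_2 and 503 to 728 in the methanol libraries (median 628). For transcript 34, all 10 methanol libraries were above both glycerol stages and below GM_2.

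Of the next 3 by level, transcript 25 had the widest course. Transcript 25 (chromosome 3, 1059449 to 1060888, plus strand, 1382 bases) had 46.8 FPKM in B_10, 219 in G_3, 22.1 in GM_2 and 24.6 to 514 in the methanol libraries (median 270). It was thus high in G_3 and late in methanol, and lower in B_10, GM_2 and M_12. Transcript 19 (chromosome 2, 1499125 to 1499923, minus strand, 799 bases) had 67.9 FPKM in B_10, 92.5 in G_3, 118 in GM_2 and 125 to 270 in the methanol libraries (median 241). Transcript 33 (chromosome 3, 2123051 to 2123496, minus strand, 446 bases) had 66.2 FPKM in B_10, 96.3 in G_3, 103 in GM_2 and 105 to 157 in the methanol libraries (median 124). Both were above all 3 earlier stages in every methanol library, by small margins at the near end.

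Methanol induction against the yeast cell culture was the first comparison over stages. In all 10 methanol libraries, 10 of the 38 transcripts were higher than in B_10 by the rule of size (4, 7, 8, 9, 11, 12, 16, 18, 20 and 44), and 0 were lower. Of all 5100 features, 8.61% were called higher and 5.53% lower. The median difference in log2(FPKM + 1) over the 38 was 0.87, against −0.01 over all features, and 33 of the 38 lay above 0, against 49.5% of all features. The call is a description of size, and no p-value stands behind it. Which libraries the unannotated transcripts were found in is not given in the sources used here. The limit on their mean was set over the same 13 libraries, 10 of them methanol. Transcripts present in methanol may therefore have entered the list more easily than others. The values set beside all features, here and below, were not adjusted for this.

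The largest difference was that of transcript 18 (chromosome 2, 1493957 to 1494452, minus strand, 496 bases). It had 17.0 to 49.5 FPKM in the methanol libraries (median 30.4), against 1.19 FPKM in B_10 and 1.11 in G_3. In GM_2, after 2 h of methanol beside glycerol, it already had 31.0 FPKM. The difference to B_10 was 3.84 on the log2 scale (3.04 to 4.53 over the 10 methanol libraries). In fragments this was 262 to 599 in the methanol libraries, against 26 in B_10, and the groups did not overlap.

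Transcript 20 (chromosome 2, 1650322 to 1651005, minus strand, 684 bases) was low in all 3 earlier stages. It had 8.37 to 22.7 FPKM in the methanol libraries (median 14.2), against 1.36 FPKM in B_10, 1.31 in G_3 and 2.13 in GM_2, a difference to B_10 of 2.69 (1.99 to 3.33). Its fragments numbered 158 to 388 in the methanol libraries and 41 in B_10. It was the only one of the 38 that was called higher in methanol induction than in GM_2.

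Transcripts 7 and 44 had intermediate values in GM_2. Transcript 7 (chromosome 1, 254094 to 254734, minus strand, 641 bases) had 23.0 to 31.7 FPKM in the methanol libraries (median 28.1), against 14.1 in GM_2, 6.93 in G_3 and 5.31 in B_10, and its difference to B_10 was 2.21. Transcript 44 (chromosome 4, 1318570 to 1319072, minus strand, 503 bases) had 29.4 to 50.1 FPKM in the methanol libraries (median 34.7), against 21.9 in GM_2, 11.1 in G_3 and 7.80 in B_10, and its difference to B_10 was 2.02. For both, the methanol libraries did not overlap any earlier stage. Transcript 12, also among the 5 with the largest difference of those called, differed from B_10 by 2.07 but from G_3 by a median of only 0.32, since G_3 already held 718 FPKM.

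The other called transcripts had smaller differences. Transcript 16 (chromosome 2, 510307 to 511570, minus strand, 1264 bases) had 4.67 to 15.9 FPKM in the methanol libraries (median 8.50), against 1.53 in B_10, a difference of 1.91. Transcripts 9, 11, 4 and 8 differed from B_10 by 1.57, 1.52, 1.49 and 1.40. Transcripts 25 and 19 had larger median differences, 2.49 and 1.81, and were not called because M_12 differed from B_10 by only −0.90 and 0.87.

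**Figure D3:**
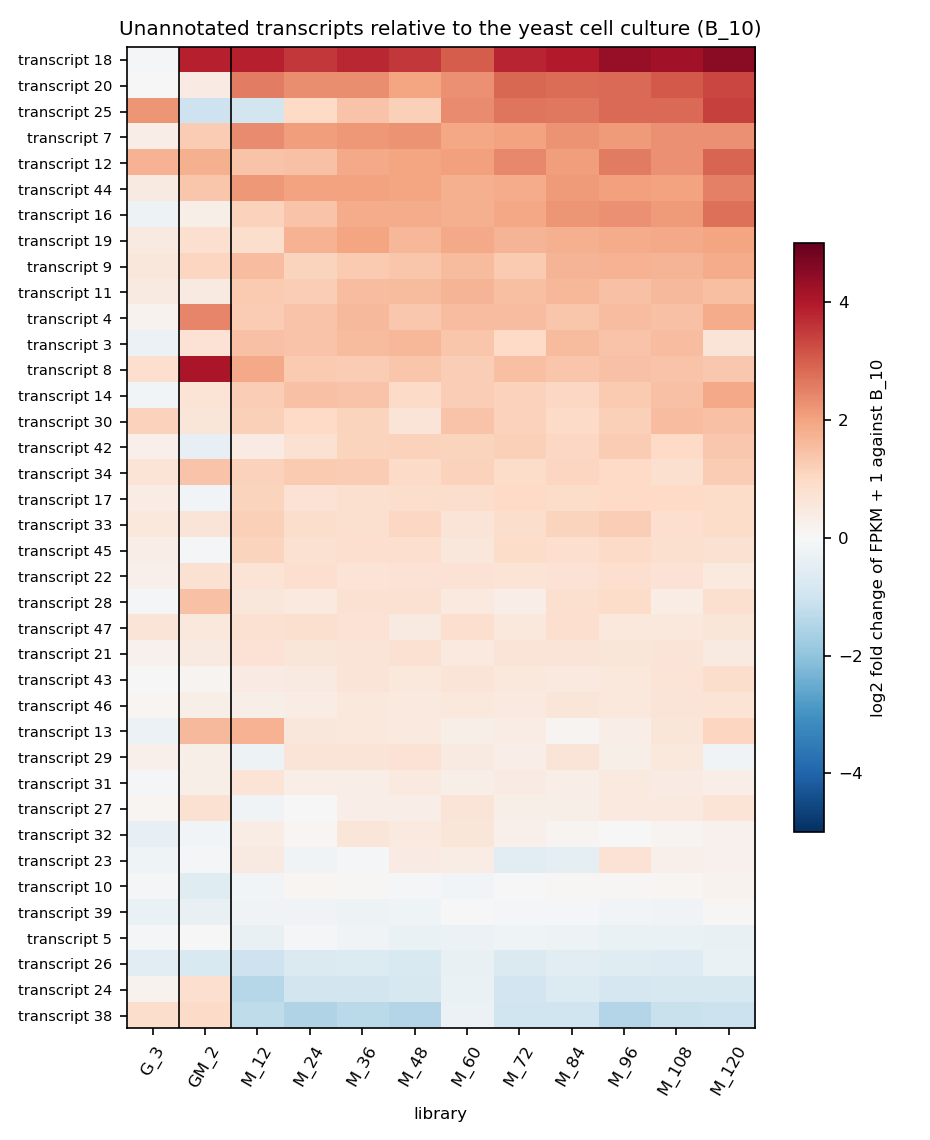
Difference in log2(FPKM + 1) from B_10 for the 38 unannotated transcripts (rows) in G_3, GM_2 and the 10 methanol libraries (columns, in order of the fermentation), red where higher and blue where lower, with the colours ending at −5 and 5. Red runs through the methanol columns for most rows, 33 of 38 having a median above 0, with transcript 18 the deepest at a median of 3.84.

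With the glycerol feed as reference, 7 of the 38 transcripts were higher in all 10 methanol libraries (4, 7, 14, 16, 18, 20 and 44), against 5.82% of all features, and 1 was lower (38), against 3.16% of all features. The median over the 38 was 0.50, against −0.01 over all features, with 34 of the 38 above 0. The 6 transcripts 4, 7, 16, 18, 20 and 44 were higher than both B_10 and G_3, as were 259 (5.08%) of the 5100 features. These comparisons share the methanol libraries and are not independent of each other.

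The glycerol feed was set against the yeast cell culture. In G_3, 3 of the 38 were higher than in B_10 (12, 25 and 30), against 2.47% of all features, and 0 were lower, against 0.784%. The median difference over the 38 was 0.21, against 0.0013 over all features. Transcripts 25, 12 and 30 differed by 2.20, 1.75 and 1.15. Transcript 30 lay 1 base from PAS_chr3_0218, annotated as the diacylglycerol acyltransferase DGA1, which makes storage lipid. That gene had 106 FPKM in G_3 and 46.7 in B_10.

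The glycerol-methanol feed, 2 h after methanol was added, differed in more of them. In GM_2, 10 of the 38 were higher than in B_10 (4, 7, 8, 9, 12, 13, 18, 28, 34 and 44), against 9.69% of all features, and 1 was lower (25), against 7.02%. Relative to G_3, 6 were higher (3, 4, 8, 13, 18 and 28), against 6.71% of all features, and 1 was lower (25), against 5.24%. Each of these 2 stages had 1 library, so neither count has a replicate check.

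Transcripts 8 and 4 peaked in GM_2. Transcript 8 (chromosome 1, 376434 to 376771, minus strand, 338 bases) had 196 FPKM in GM_2, against 19.3 in G_3 and 10.5 in B_10, and it stood at 25.9 to 41.2 FPKM in the methanol libraries (median 29.2). The difference of GM_2 to B_10 was 4.10, the largest of the 38 in that comparison. Transcript 4 (chromosome 1, 21854 to 24467, minus strand, 2614 bases) had 89.5 FPKM in GM_2, against 18.0 in G_3 and 15.7 in B_10, and it stood at 39.0 to 59.7 FPKM in the methanol libraries (median 45.9). Transcripts 13 and 28 also had high values in GM_2, 10.5 and 15.2 FPKM, against 2.76 and 4.88 FPKM in B_10.

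From the glycerol-methanol feed to methanol alone, 1 of the 38 transcripts was higher in all 10 methanol libraries (20), against 4.39% of all features, and 3 were lower (8, 24 and 38), against 4% of all features. Transcript 24 (chromosome 2, 2304333 to 2304582, minus strand, 250 bases) had 6.21 to 14.3 FPKM in the methanol libraries (median 9.82), against 34.0 in GM_2, 20.6 in G_3 and 18.3 in B_10. Transcript 38 (chromosome 4, 39472 to 39792, plus strand, 321 bases) had 2.53 to 7.23 FPKM in the methanol libraries (median 3.41), against 18.4 in GM_2, 17.4 in G_3 and 9.05 in B_10. Transcript 38 was the only one called lower in methanol induction than in G_3. It rested on 19 to 72 fragments a library in methanol, against 213 in G_3, 256 in GM_2 and 128 in B_10.

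**Figure D4:**
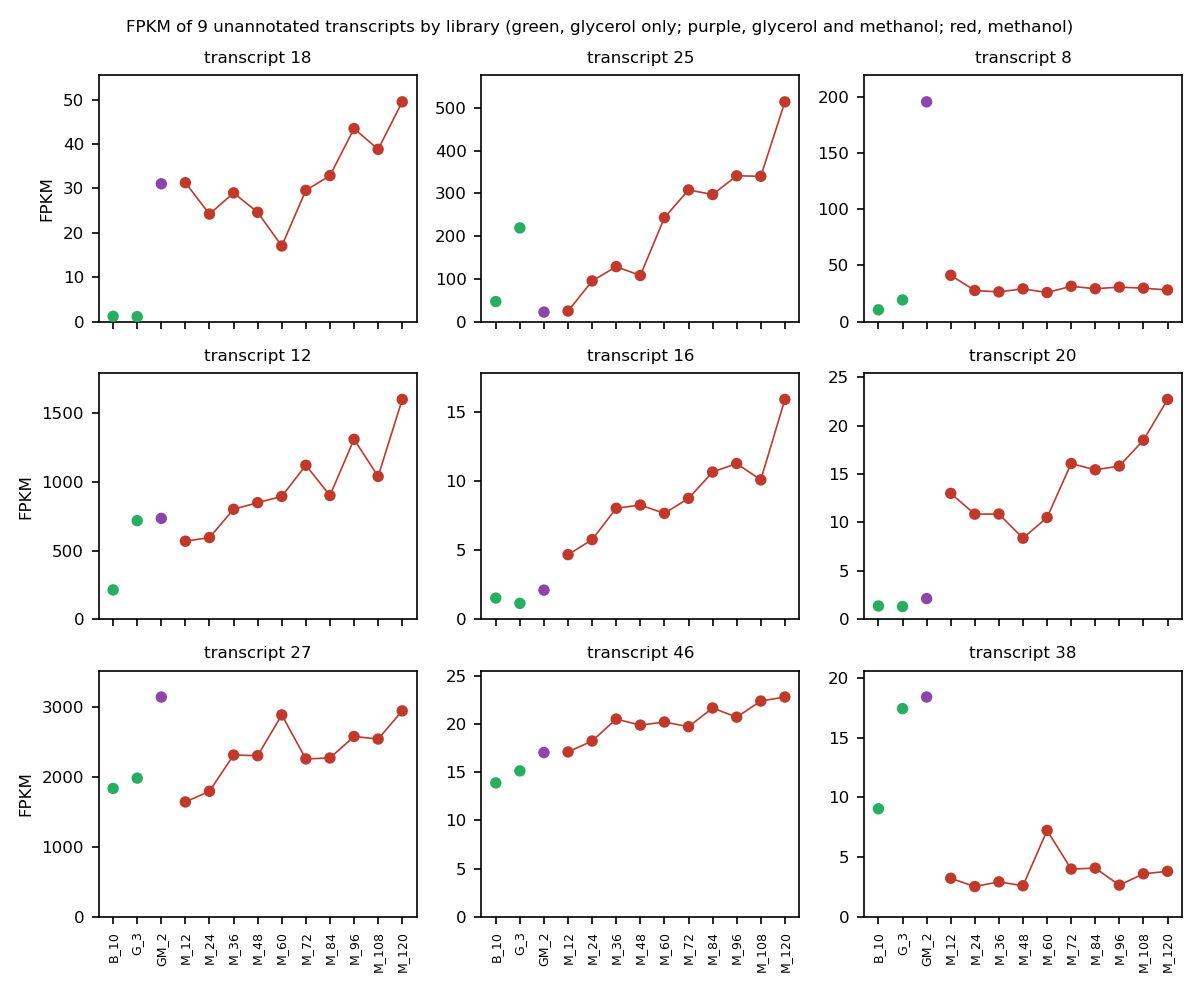
FPKM (y axis, from 0) of 9 unannotated transcripts in the 13 libraries in order of the fermentation (x axis), coloured by the carbon source, with the methanol libraries joined by a line. Transcript 18 steps up in GM_2 to 31.0 FPKM, transcript 20 only in the methanol libraries, transcript 8 peaks in GM_2 at 196 FPKM, transcript 25 climbs through methanol to 514 FPKM and transcript 38 drops after GM_2 to at most 7.23 FPKM.

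Within methanol induction, a linear trend over the 10 time points from 12 to 120 h was fitted to each of the 5100 features with limma. Of the 38 transcripts, 6 rose (12, 16, 20, 25, 27 and 46; 4.88% of all features) and 0 fell (2.8% of all features). At an unadjusted p under 0.05, 12 of the 38 had a positive slope and 0 a negative one, against 13.9% and 11.5% of all features. The adjusted test called 6 of these 12. These p-values measure the spread of serial samples of 1 culture around a line.

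Transcript 25 rose most. It had 24.6 FPKM in M_12, 95.0 in M_24, 243 in M_60 and 514 in M_120, a fitted change of 3.46 ± 0.49 on the log2 scale (SE, limma adjusted p = 0.00315). Transcripts 12 and 16 rose by 1.27 ± 0.19 (limma adjusted p = 0.00376) and 1.23 ± 0.17 (limma adjusted p = 0.00306). With the 5 libraries from M_72 set against the 5 up to M_60 in place of a line, these 3 were not called (limma adjusted p = 0.0643, 0.0666 and 0.0745 for transcripts 25, 12 and 16), and transcript 20 was (limma adjusted p = 0.0271). The course of transcript 16 ran from 4.67 FPKM in M_12 to 15.9 in M_120, and transcript 12 ended at 1601 FPKM.

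The other 3 lay close to the threshold. Transcript 20 rose by 0.95 ± 0.24 (limma adjusted p = 0.0371), transcript 27 by 0.62 ± 0.17 (limma adjusted p = 0.0487) and transcript 46 by 0.32 ± 0.08 (limma adjusted p = 0.0364). Without M_120, or with each library rescaled without the 20 most abundant genes, these 3 were no longer called (limma adjusted p = 0.167, 0.16 and 0.116 without M_120, and 0.0597, 0.0628 and 0.22 rescaled). Without M_12, transcripts 27 and 46 were not called either (limma adjusted p = 0.105 and 0.0765). The median fitted change of the 38 was 0.20, against 0.01 over all features, and 0.05 against −0.15 after the rescaling.

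M_120 was the highest library for 14 of the 38 transcripts (36.8%), against 12.9% of all features, and for 10 after the rescaling, against 6.31%. This library also had the largest sum of FPKM. GM_2 was the highest library for 8 (18.9% of all features), M_12 for 5 (14.9% of all features), B_10 for 1 (transcript 26; 21.9% of all features) and G_3 for 0 (11.4% of all features). In all, 29 of the 38 (76.3%) were highest in a methanol library, against 47.4% of annotated genes. Methanol libraries were 10 of the 13, so an even spread of maxima would also place most of them there.

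Some transcripts had a narrow range over the stages. Transcript 39 had 113 FPKM in B_10, 89.4 in G_3, 87.0 in GM_2 and 95.8 to 119 in the methanol libraries (median 101). Transcript 46, which rose within methanol induction, had 13.9 FPKM in B_10, 15.2 in G_3, 17.1 in GM_2 and 17.1 to 22.8 in the methanol libraries (median 20.4), all above both glycerol stages. In 17 of the 38 transcripts (44.7%) no comparison between stages and no trend gave a call, against 65.5% of all features.

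The course of each unannotated transcript was set beside that of its nearest gene, as Pearson's r of log2(FPKM + 1) over the 13 libraries. The median r was 0.48 for the 38 transcripts, against 0.23 over the 5032 annotated genes and their nearest genes. It was over 0.8 for 9 transcripts (23.7%, against 14.6% of annotated genes) and below 0 for 11 (28.9%, against 39.7%). The points share their libraries and depth, and no test was made. For the 12 transcripts within 3 bases of a gene the median was 0.61, and for the 26 farther away it was 0.30.

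Transcript 18 followed its neighbour PAS_chr2-1_0782, 98 bases away (r = 0.98). That gene had a median of 344 FPKM in the methanol libraries, against 233 in GM_2, 79.4 in G_3 and 79.0 in B_10, a smaller difference to B_10 (2.11) than that of the transcript. Transcripts 24 (gap 0, PAS_chr2-2_0043) and 20 (gap 2, PAS_chr2-2_0395) also followed theirs, with r = 0.97 and 0.96. Transcript 20 differed from B_10 by a median of 2.69 and its neighbour by 0.59, so the 2 moved by unequal amounts. The gene on the other side of transcript 20, 192 bases away, differed from B_10 by a median of 1.94, and no r was computed for it. Transcript 19 lay 122 bases from PAS_chr2-1_0785, annotated as the long chain fatty acyl-CoA synthetase ACSL1 (FAA1), which activates fatty acids, and had r = 0.87 with it. ACSL1 had a median of 1323 FPKM in the methanol libraries, against 570 in B_10.

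Other transcripts ran opposite to their nearest gene. Transcript 31 had r = −0.90 with PAS_chr3_0236, 172 bases away, which had a median of 39.4 FPKM in the methanol libraries, against 237 in B_10. Transcript 16, which rose in methanol, had r = −0.89 with PAS_chr2-1_0821, 9 bases away, which had 69.8 FPKM in methanol (median), against 107 in B_10. Transcript 21 had r = −0.79 with PAS_chr2-2_0360 at a gap of 96 bases, and transcript 9 had r = −0.66 with PAS_chr1-4_0511 at a gap of 1 base. No r was computed for the gene on the other side. In methanol induction that gene differed from B_10 by a median of 2.65, 0.47, 0.31 and −0.21 for transcripts 16, 21, 9 and 31. The transcripts themselves differed by 1.91, 0.63, 1.57 and 0.38. An extension of the neighbour's RNA and a separate transcript cannot be told apart from these values where strand is not known.

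**Figure D5:**
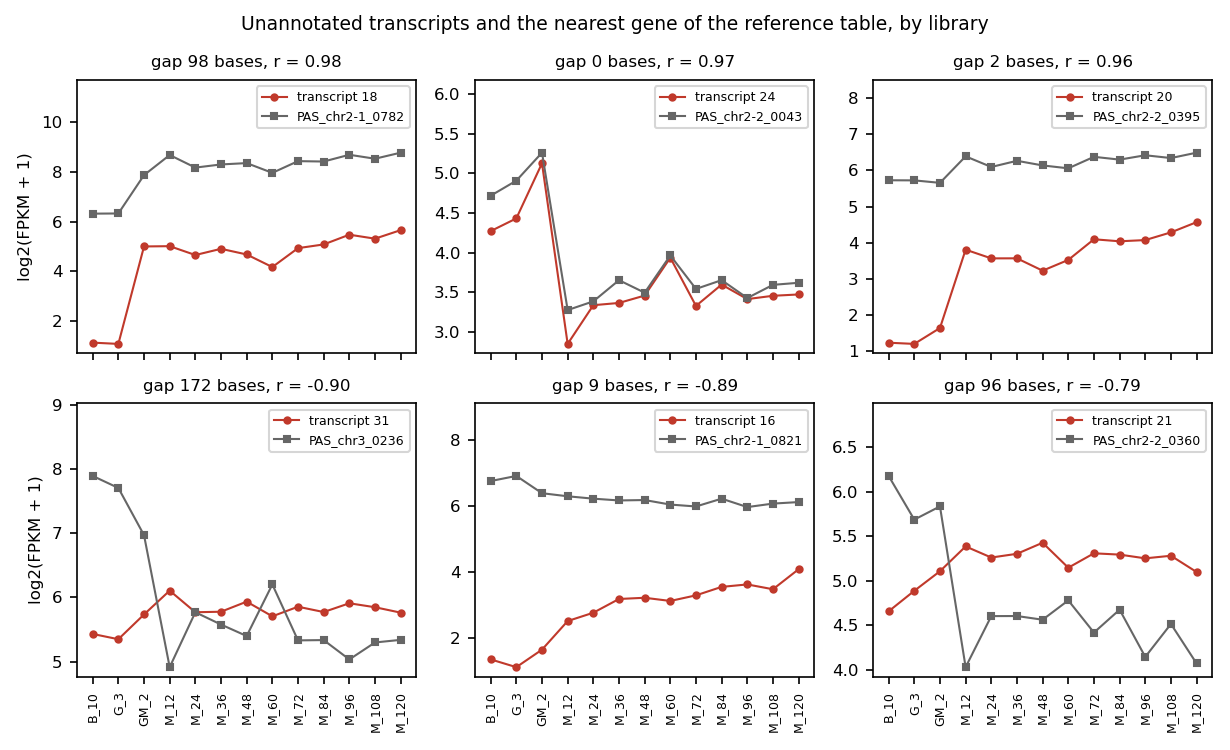
log2(FPKM + 1) (y axis) of 6 unannotated transcripts and of the annotated gene nearest to each, in the 13 libraries in order of the fermentation (x axis), with the gap in bases and Pearson's r above each panel. Transcripts 18, 24 and 20 run with their neighbours (r = 0.98, 0.97 and 0.96), and transcripts 31, 16 and 21 run against them (r = −0.90, −0.89 and −0.79).

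For the 3 transcripts with the widest range over the 13 libraries, the annotated genes with the most similar course were sought. Transcript 18 was nearest to PAS_chr3_0105 (r = 0.99), PAS_chr1-3_0013 (0.98) and PAS_chr2-1_0365 (0.98), and of these PAS_chr1-3_0013 had 503 to 757 FPKM in the methanol libraries, against 63.6 in B_10. This gene is also the neighbour of transcript 4, at a gap of 0 and with r = 0.86. It had 497 FPKM in GM_2 and so did not peak there as transcript 4 did. The gene on the other side of transcript 4, 910 bases away, had 2051 FPKM in GM_2. That gene had 44.5 FPKM in B_10 and a median of 131 in the methanol libraries. Transcript 25 was nearest to PAS_chr1-1_0422 (r = 0.99), PAS_chr3_1209 (0.97) and PAS_chr3_0053 (0.96). Transcript 8 was nearest to PAS_c121_0004, PAS_chr3_1093 and PAS_chr3_0032 (r = 0.97 each), and PAS_chr3_0032 had 118 FPKM in GM_2, against 9.27 in B_10. Such values are the largest of 5032 correlations over 13 shared libraries and were not tested.

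Below the level limit, transcript 36 (chromosome 4, 1507 to 4399, plus strand, 2893 bases) had 0.0647 to 2.29 FPKM in the methanol libraries (median 1.28), against 0.152 in GM_2, 0.0817 in G_3 and 0.0627 in B_10. Transcript 15 (chromosome 2, 348784 to 349042, minus strand, 259 bases) had 4.36 FPKM in M_60 and at most 1.16 in the other 12 libraries. Transcripts 2, 6 and 41 had means of 0.175, 0.173 and 0.526 FPKM.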

How the data were processed

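RNA of 13 samples was sequenced with paired-end reads and aligned by the authors with HISAT2 2.0.5. The deposited FPKM hold 1 value per feature and library, already divided by transcript length and by a depth factor of each library. The counter, the scaling between libraries, the assembler of the unannotated transcripts, the strandedness and the genome build were not given in any source used here. FPKM values were analysed as log2(FPKM + 1) for features with a mean FPKM of at least 1. Fragments were recovered from FPKM and length, and 86.4 to 96.1% of the values of up to 200 fragments were whole within 0.01 in each library. This sets the counting precision, and no interval between stages was computed. Stages were compared by size (log2 difference of at least 1). The trend over methanol hours was fitted with limma 3.58.1 in R 4.3.3 (empirical Bayes with trend, 8 residual degrees of freedom, Benjamini-Hochberg threshold 0.05). The fit was also run on simulated libraries with independent noise, which serial samples of 1 culture need not have. That run does not check the p-values for dependence between time points. Places were matched to 5040 annotated genes of RefSeq assembly ASM2700v1 by locus tag in Python 3.11.15, while 352 other identifiers had no coordinates there. The members, lists and rules were chosen with earlier results of these data known. Values in full were given for the 6 transcripts with the largest mean, the 5 called with the largest difference between methanol induction and B_10, and those past the trend test, and annotated genes named were the nearest genes and the 3 most similar courses of the 3 transcripts with the widest range. Transcripts named outside that rule were chosen after their values were seen. Alternatives were other pseudocounts, filters, thresholds, references and scaling, and leaving out single libraries.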

Additional observations from a re-analysis of the deposited data

Results flagged for a closer look

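In 5 of the 38 unannotated transcripts, 1 of the 10 methanol libraries stood apart by its gap to the nearest other library as a share of the whole range. Gap and range were taken in log2(FPKM + 1), so the shares do not follow from the FPKM printed beside them. For independent normal values, chance flags about 1 in 20 such groups. The methanol libraries are serial samples, so that rate need not hold here, and no share over all features was computed. Transcripts 8, 19, 22 and 44 were flagged at the first or last time point. Transcript 8 was high in M_12 (41.2 FPKM, against 25.9 to 31.5 in the other methanol libraries, gap share 0.582). Transcript 19 was low in M_12 (125 FPKM, against 219 to 270, gap share 0.731). Transcript 22 was low in M_120 (8.01 FPKM, against 9.24 to 10.4, gap share 0.533). Transcript 38 was high in M_60 (7.23 FPKM, against 2.53 to 4.07, gap share 0.572). Transcript 44 was high in M_120 (50.1 FPKM, against 29.4 to 38.7, gap share 0.486).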

How the results depend on the processing

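Each stage before methanol alone rests on 1 library, so the counts by size have no replicate check, and 10 of the 38 transcripts fell under 100 fragments in some library. No paired analysis was possible because the labels carry no replicate numbers and only methanol induction has more than 1 library. Neighbours on the same strand were not sought, since the reference table holds no strand. The rescaled count of transcripts highest in M_120 was chosen after seeing the data.

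Of the 38 transcripts, methanol induction against B_10 called 10 higher and 0 lower. The number higher was 19 at a log2 threshold of 0.5, 4 at a threshold of 1.5 and 17 when the median methanol library had to pass. The number lower was 1 by that median and 1 with G_3 in place of B_10. Without M_12, 12 were higher, the same 10 and transcripts 19 and 25. For G_3 against B_10 (3 higher, 0 lower), a threshold of 0.5 gave 9 and 1. For GM_2 against B_10 (10 higher, 1 lower), a threshold of 0.5 gave 20 and 3, a threshold of 1.5 gave 5 and 0, a pseudocount of 5 and the rescaling without the 20 most abundant genes each left 0 lower, and G_3 as reference gave 6 higher. For methanol induction against GM_2 (1 higher, 3 lower), the number higher was 2 with a pseudocount of 0.1, 0 with a pseudocount of 5, 3 after the rescaling, 4 without M_12 and 7 by the median library, a threshold of 0.5 gave 7 and 5, and a threshold of 1.5 left 1 lower. The 6 rising trends became 3 after the rescaling and 3 without M_120 (transcripts 12, 16 and 25 in both), and 1 when the 5 libraries from M_72 were set against the 5 before (transcript 20). Without M_12 the trend called 6, of which 4 were shared, and without M_60 it called 9. The cause of these shifts was not tested. The other 70 alternative values for these counts stayed within 1.5 times the count reported. The fitted changes of transcripts 7, 33 and 44, which were not called (0.03, −0.02 and 0.22 from 12 to 120 h), changed sign. They were −0.12 for transcript 7 after the rescaling, −0.0436, 0.0061 and −0.0632 for transcripts 7, 33 and 44 without M_120, 0.16 for transcript 33 without M_12 and 0.0767 for it with late against early libraries.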
